A study of Mus musculus with 12 samples.

Results

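The potassium channel genes of cultured mouse cerebellar granule neurons (CGNs) were followed in 12 arrays. They were taken as all genes whose symbol starts with Kcn, and 84 of the 18193 genes that the arrays measured with a probe set of a single gene were members. Each gene was read from its brightest such probe set over all arrays, and 28 members had a mean log2 value of at least 5, while 56 were dimmer. CGNs came from pups of Ifnb+/+ or Ifnb-/- mice on the B10.RIII strain, 7 days old by the sample labels, and were grown for 3 days. Ifnb-/- mice lack the gene of interferon β. Each genotype was left untreated or given recombinant interferon β (rIFN-β) at 100 U/ml over the 24 hr before lysis, with 3 cultures a group. The methods call the cultures triplicates without naming their litters or animals, and the p-values therefore measure no more than the spread among these cultures.

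Potassium channels let K+ leave the cell and so set the resting potential, the shape of the action potential and the firing rate of a neuron. Voltage-gated channels open on depolarization, inward rectifiers and tandem-pore leak channels work near rest, and calcium-activated channels link the membrane potential to calcium entry. Granule neurons, the small excitatory cells of the cerebellar cortex, are known for a strong A-type current, for leak channels that hold their resting potential, and for G protein-gated inward rectifiers.

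Markers of granule neurons were bright in every group, with 12 of 14 measured markers at a mean of at least 5 and a mean marker level between 8.01 and 8.61 over the arrays. Markers of other cells were also present, with all 10 astrocyte markers and 12 of 15 microglial markers at a mean of at least 5. The paper describes the CGNs on the arrays as highly pure, and marker brightness does not give the share of other cells. Where other cells are present, fewer cells of a type and less RNA per cell cannot be told apart. Arrays of untreated Ifnb-/- were most alike (median SD of the 28 bright members 0.064), and those of untreated Ifnb+/+ differed most (0.366). Ifnb+/+ replicate 1 held the lowest value of all 12 arrays for 9 of the 28 bright members and the highest for 10. Ifnb-/- + rIFN-β replicate 2 and Ifnb+/+ + rIFN-β replicate 3 had mean levels of the cycling progenitor markers of 5.61 and 5.38, while the untreated arrays lay between 3.78 and 4.45. Ifnb1 itself read close to the bottom of the scale in each group, from 2.66 to 2.95, and so gave no check of the genotypes.

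The brightness of a probe set depends on its probes as well as on its transcript, so the order below is of signals, not of transcript amounts. Of all genes, 53.5% had a mean of at least 5, against 33.3% of the potassium channel genes, 62.5% of 24 calcium channel genes (Cacn) and 36.4% of 11 sodium channel genes (Scn). The last members inside the threshold were Kcna6 (5.35), Kcnip3 (5.32) and Kcnk3 (5.19), and the first outside were Kcnh2 (4.74), Kcna7 (4.73) and Kcne1l (4.72).

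**Figure D1:**
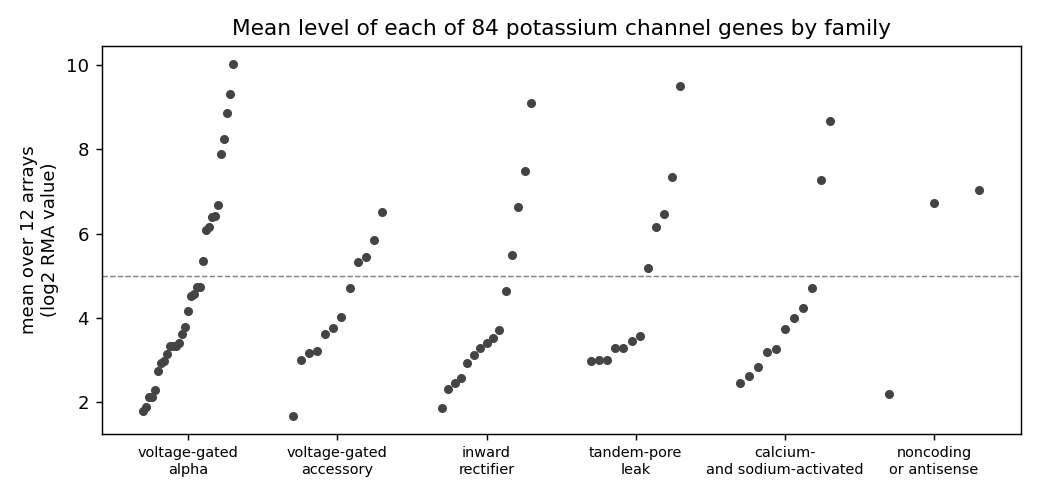
Each point is 1 of 84 potassium channel genes, placed by family on the horizontal axis and by its mean log2 value over 12 arrays on the vertical axis, with the dashed line at 5. The 28 genes above the line came from every family, and the brightest reached 10.04.

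Voltage-gated pore-forming subunits made up 31 members, 11 of them bright. Kcnd2 and Kcnd3, whose channels carry the fast A-type current, had means of 10.04 and 9.30. Kcnq5 (8.87) and Kcnq3 (6.39) encode subunits of the slow M-type current. Kcna1 (8.26) and Kcna2 (6.69) form axonal delayed rectifiers, and Kcnc1 (7.88) forms a channel of fast-spiking cells. Kcnc1 held between 7.87 and 7.98 in all 6 untreated arrays. Kcns2, Kcnh1, Kcnh3 and Kcna6 completed the group, with means between 5.35 and 6.41.

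Of 12 accessory subunits, 4 were bright, namely Kcnab1 and Kcnab2, which encode β subunits of Kcna channels, and Kcnip2 and Kcnip3, which encode calcium-binding partners of Kcnd channels. Kcnip1 (4.02) and Kcnip4 (3.62), known partners of the A-type channel in granule neurons, were read from dim probe sets. Of 15 inward rectifiers, 4 were bright. Kcnj3 (9.09) and Kcnj6 (6.64) encode G protein-gated subunits, Kcnj11 (7.49) the pore of the ATP-sensitive channel, and Kcnj10 (5.48) the potassium-buffering channel of astrocytes. Kcnj9, also a G protein-gated subunit, was just under the threshold at 4.64.

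The tandem-pore leak channels had 12 members and 5 bright genes: Kcnk1 (9.49), Kcnk2 (7.34), Kcnk12 (6.48), Kcnk10 (6.17) and Kcnk3 (5.19). Kcnk2 and Kcnk10 encode leak channels opened by stretch and lipids, and Kcnk3 an acid-sensitive leak channel. Of 11 calcium- and sodium-activated members, Kcnmb4 (8.67), a β subunit of the large-conductance channel, and Kcnma1 (7.26), its pore, were bright. Of 3 noncoding transcripts, Kcnq1ot1 (7.04) and Kcnmb4os2 (6.72) were bright.

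Channels of other cell types were mostly dim. The microglial and macrophage channel genes Kcnk13 (3.56), Kcnk6 (2.97), Kcna3 (3.41), Kcnn4 (3.74) and Kcnj2 (1.87), the pericyte channel gene Kcnj8 (3.13) and the astrocyte channel gene Kcnj16 (3.71) were all below 4. Kcnj10 was the only bright one of the 8 that were listed. It read 5.68, 5.56 and 5.64 in untreated Ifnb+/+ and 5.24, 5.36 and 5.32 in untreated Ifnb-/-, lower in every Ifnb-/- array without being called (-0.32, adjusted p = 0.221).

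**Figure D2:**
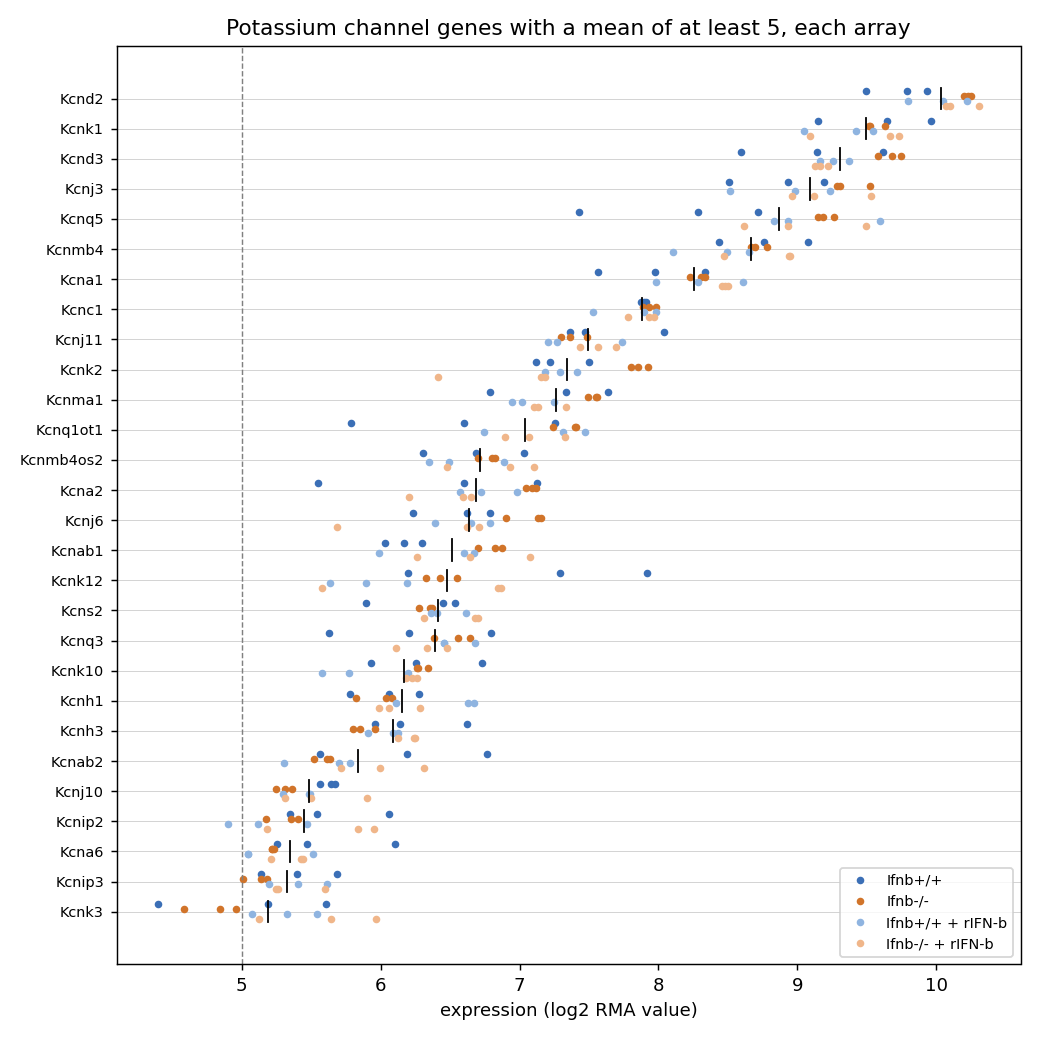
Log2 values (horizontal axis) of the 28 bright potassium channel genes in each of 12 arrays, coloured by group, with a vertical bar at the mean and a dashed line at 5. The 3 untreated Ifnb-/- arrays lie close together for most genes, while the untreated Ifnb+/+ arrays spread, as for Kcnq5 (7.43 to 8.72) and Kcnk12 (6.20 to 7.92).

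The first comparison asked whether loss of Ifnb changed potassium channel genes in untreated CGNs. No member (0 of 84) passed the test in limma at an adjusted p under 0.05, where 0.115% of all genes did. The 6 bright members of smallest p, Kcnd2, Kcnq5, Kcnk2, Kcnab1, Kcnd3 and Kcnq1ot1, were all on the higher side in Ifnb-/- by 1.40- to 2.08-fold. They did not come from 1 family, and of the 12 leak channel genes 1, Kcnk2, was on the higher side. Before adjustment, 9 members were higher in Ifnb-/- at a p under 0.05, beside 8.4% of all genes, and 10 were lower, beside 12.8% of all genes. These counts are 10.7% and 11.9% of the 84 members. Of the 28 bright members, 8 were higher and 3 lower at that p, and among all bright genes the shares were 14% and 16.2%. The median difference of the bright members was 0.04, and that of all bright genes was -0.08.

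Kcnd2 read 9.50, 9.94 and 9.79 in the Ifnb+/+ arrays and 10.23, 10.25 and 10.20 in the Ifnb-/- arrays. All Ifnb-/- arrays were above all Ifnb+/+ arrays. The log2 difference was 0.48 (SE 0.14, adjusted p = 0.172). Kcnq5 read 7.43, 8.72 and 8.28 in Ifnb+/+ and 9.15, 9.27 and 9.19 in Ifnb-/-, again with no overlap. Its difference was the largest of the 84 members at 1.06 (SE 0.31, adjusted p = 0.175), and replicate 1 was the lowest of the Ifnb+/+ arrays for both genes.

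Kcnk2 read 7.12, 7.50 and 7.22 in Ifnb+/+ and 7.92, 7.80 and 7.85 in Ifnb-/-. Kcnab1 read 6.30, 6.17 and 6.03 in Ifnb+/+ and 6.82, 6.88 and 6.70 in Ifnb-/-. The groups did not overlap for either gene, and the differences were 0.58 (SE 0.19) and 0.63 (SE 0.21), each with an adjusted p of 0.185. Kcnd3 (0.55, adjusted p = 0.194) and Kcnq1ot1 (0.80, adjusted p = 0.198) overlapped, since replicate 2 of Ifnb+/+ reached the Ifnb-/- values. Without Ifnb+/+ replicate 1 the differences were 0.29 for Kcnd3, 0.42 for Kcnq1ot1 and 0.70 for Kcnq5. Kcnq1ot1 is a long noncoding RNA read antisense to Kcnq1.

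Some members lay in the other direction. Kcnk12, a leak channel gene, read 7.92, 6.20 and 7.29 in Ifnb+/+ and 6.43, 6.55 and 6.33 in Ifnb-/-, so the groups overlapped and the difference of -0.70 had an SE of 0.40. The 3 dimmer genes Kcnf1 (-0.41), Kcnh2 (-0.59) and Kcnn3 (-0.51) were lower in every Ifnb-/- array, with adjusted p between 0.185 and 0.200. Kcnf1 encodes a silent voltage-gated subunit, Kcnh2 the pore of a delayed rectifier best known from the heart, and Kcnn3 a small-conductance calcium-activated channel.

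**Figure D3:**
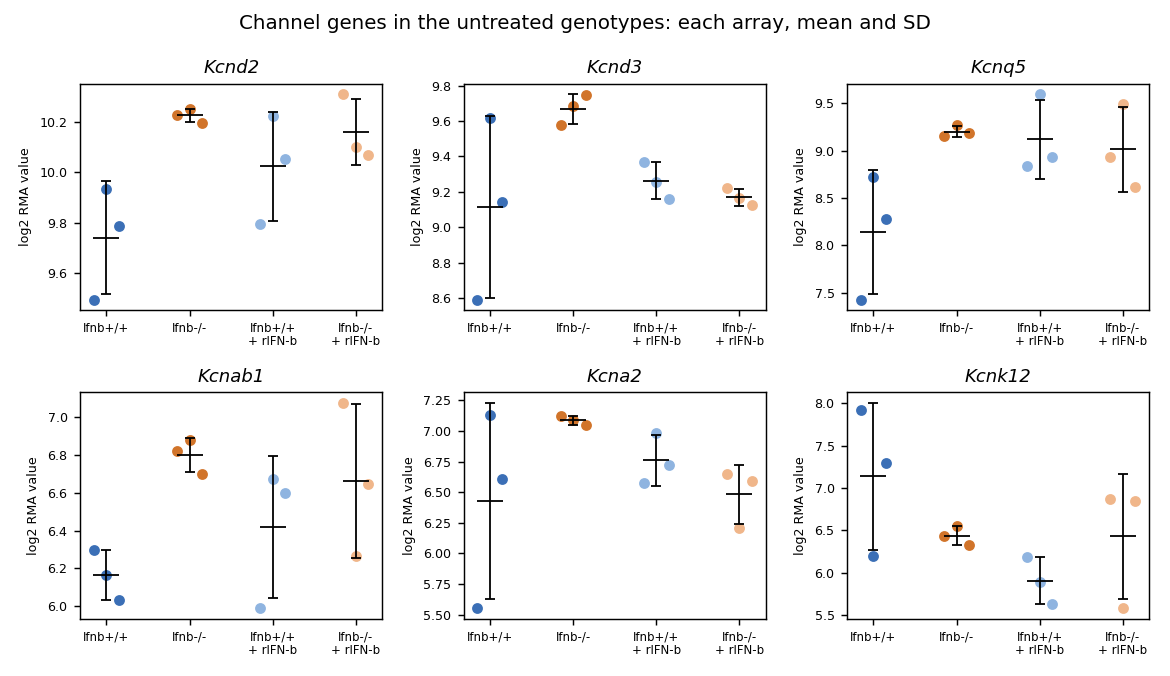
Log2 values of 6 potassium channel genes in the 4 groups, with a point for each array, a bar at the mean and whiskers for the SD (n = 3). Kcnd2, Kcnq5 and Kcnab1 are higher in all 3 untreated Ifnb-/- arrays than in the untreated Ifnb+/+ arrays, and Kcnd3, Kcna2 and Kcnk12 overlap.

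The count for the untreated genotypes turned on a single Ifnb+/+ array. Without Ifnb+/+ replicate 2, 12 members were called, 7 higher and 5 lower in Ifnb-/-, where 21.1% of all genes were called. They included Kcnq5 (1.34), Kcnk2 (0.69) and Kcnd2 (0.58) among the higher and Kcnk12 (-1.17) and Kcnab2 (-0.89) among the lower. Without replicate 1 or without replicate 3, 0 members were called.

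The microglial markers also differed between the untreated genotypes. All 15 were on the lower side in Ifnb-/- with a median difference of -0.47, and 2 were called, Trem2 (-1.03, adjusted p = 0.0164) and Fcgr1 (-1.30, adjusted p = 0.0115). Their mean level was between 7.12 and 7.28 in Ifnb+/+ arrays and between 6.57 and 6.75 in Ifnb-/- arrays. Their part in the values of the channel genes was not tested.

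The next comparison asked what rIFN-β did to the potassium channel genes of Ifnb+/+ CGNs. Of 84 members, 1 was called, Kcnk13, which fell. Over all genes 3.14% were called. Before adjustment, 2 members were higher at a p under 0.05 (8.81% of all genes were) and 8 were lower (11.1% of all genes were). These 8 are 9.52% of the members. The leak channels held 4 of them, the bright Kcnk12 and Kcnk10 and the dimmer Kcnk13 (mean 3.56) and Kcnk6 (2.97). The median difference of the bright members was 0.01, beside -0.07 for all bright genes.

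Kcnk13 encodes a leak channel that sets the resting potential of microglia. It read 3.74, 3.57 and 3.87 untreated and 3.30, 3.34 and 3.08 with rIFN-β, so all treated arrays were below all untreated ones. It fell by 0.49 on the log2 scale, 1.40-fold (SE 0.11, adjusted p = 0.0360), and its other probe set stayed between 1.61 and 1.74 in these arrays, at the bottom of the scale. The call held in 3 of 12 fits that left out an array, those without Ifnb+/+ replicate 2, Ifnb+/+ + rIFN-β replicate 1 or Ifnb-/- + rIFN-β replicate 2, and the adjusted p ran from 0.0142 to 0.176.

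The microglial markers moved in the same comparison. Of 15 markers measured, 8 were called lower with rIFN-β in Ifnb+/+, among them Cd68 (-1.65), Trem2 (-1.50) and C1qb (-1.12). Fcgr1 (0.29, adjusted p = 0.319) and P2ry12 (group means 2.72 untreated and 3.18 treated) went the other way and were not called. The mean level of the 15 markers was between 7.12 and 7.28 in untreated Ifnb+/+ arrays and between 6.28 and 6.66 in treated ones. Of the defining markers, Cx3cr1 (3.21) and P2ry12 (2.83) were dim. Kcnk6, also a channel gene of macrophages, read 3.30, 3.52 and 2.78 untreated and 2.79, 2.70 and 2.80 treated, a difference of -0.44 that was not called (adjusted p = 0.227). The part of the microglial markers in the fall of Kcnk13 was not tested.

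Kcnq5 and Kcnk12 had the widest differences among the bright members and were not called. Kcnq5 read 8.83, 9.60 and 8.93 with rIFN-β, above its 3 untreated values of 7.43, 8.72 and 8.28, with a difference of 0.98 (SE 0.31, adjusted p = 0.118). Kcnk12 read 6.19, 5.89 and 5.64 with rIFN-β, below the 6.20 of the lowest untreated array by a margin smaller than the spread, with a difference of -1.23 (SE 0.40, adjusted p = 0.125). Without Ifnb+/+ replicate 1 the difference of Kcnq5 was 0.62. Both were called without Ifnb+/+ replicate 2, with differences of 1.26 and -1.70, in a fit that called 7 members and 16% of all genes.

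In Ifnb-/- CGNs, rIFN-β lowered 2 potassium channel genes, Kcnn2 and Kcnk2. Each was read by its only single-gene probe set, and Kcnn2 (mean 4.23) was among the dimmer members. Over all genes 1.67% were called. The unadjusted p was under 0.05 for 5 members that were higher, beside 9.16% of all genes, and for 5 that were lower, beside 5.44% of all genes, and with the arrays centred on their median these were 3 and 5. The median difference of the bright members was -0.02 and that of all bright genes 0.03.

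Kcnn2 encodes a small-conductance calcium-activated channel that hyperpolarizes the cell after spikes. In Ifnb-/- it read 4.75, 4.78 and 4.68 untreated and 3.61, 3.53 and 3.68 with rIFN-β. Every treated array was lower than every untreated array, and Kcnn2 fell by 1.13 on the log2 scale, 2.20-fold (SE 0.22, adjusted p = 0.0252). In Ifnb+/+ it read 4.13, 5.26 and 4.69 untreated and 3.81, 4.12 and 3.69 treated, a difference of -0.82 (SE 0.22, adjusted p = 0.0717), with the groups just apart. This difference was -1.10 and called without Ifnb+/+ replicate 1 (adjusted p = 0.00485), and -0.54, not called, without Ifnb+/+ replicate 2.

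Kcnk2 read 7.92, 7.80 and 7.85 in untreated Ifnb-/- and 7.19, 6.41 and 7.16 with rIFN-β. The treated arrays were all lower, and replicate 2 was the lowest. Kcnk2 fell by 0.94 on the log2 scale, 1.92-fold (SE 0.19, adjusted p = 0.0277), and without Ifnb-/- + rIFN-β replicate 2 the difference was -0.69 and was still called. In Ifnb+/+ it read 7.12, 7.50 and 7.22 untreated and 7.18, 7.42 and 7.29 treated, a difference of 0.02 (SE 0.19). The test of the difference between the genotypes gave -0.96 (SE 0.26, adjusted p = 0.323), so a difference in response was not shown.

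**Figure D4:**
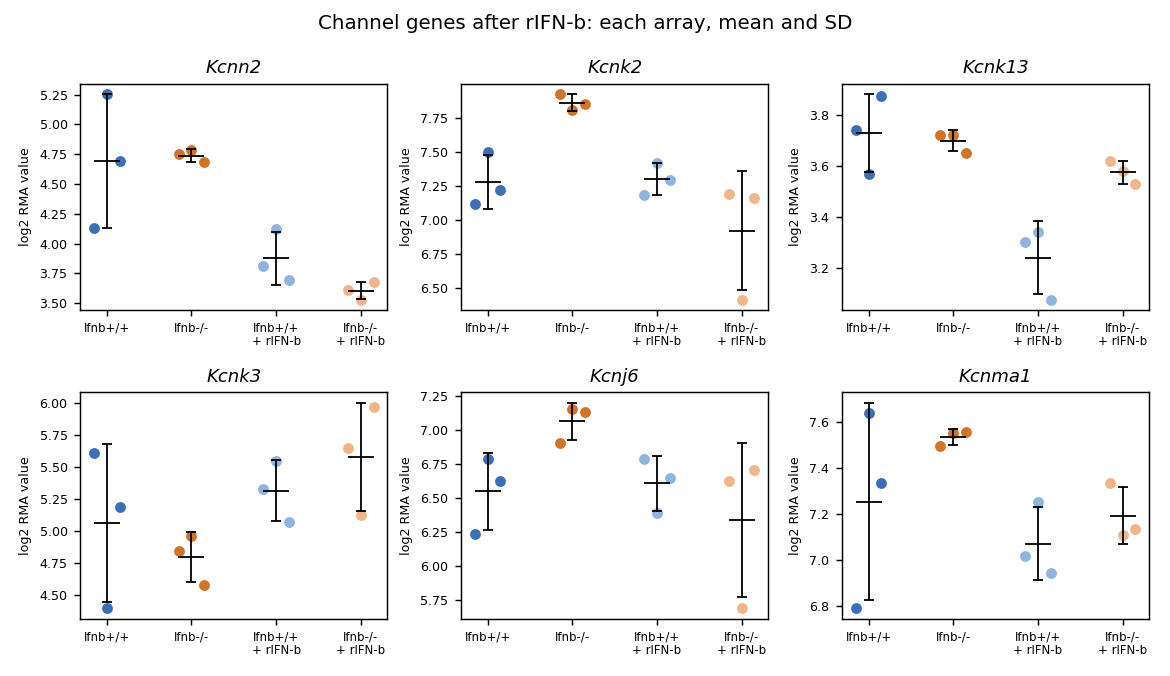
Log2 values of 6 potassium channel genes in the 4 groups, with a point for each array, a bar at the mean and whiskers for the SD (n = 3). For Kcnn2 the treated arrays lie below the untreated ones in both genotypes (called in Ifnb-/-), for Kcnk2 they do so in Ifnb-/-, and Kcnk13 is lowest in Ifnb+/+ with rIFN-β.

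Both calls in Ifnb-/- depended on which array was left out. Kcnn2 was called in 5 of 12 fits that left out an array, with an adjusted p up to 0.124, and it was lost without Ifnb+/+ replicate 3 or any 1 array of the Ifnb-/- groups. Kcnk2 was called in 8 of 12, with an adjusted p up to 0.141, and was lost without Ifnb+/+ replicate 3 or any 1 untreated Ifnb-/- array. The differences themselves stayed between -1.17 and -1.10 for Kcnn2 and between -1.07 and -0.69 for Kcnk2.

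Other members with small p-values in Ifnb-/- were not called. Kcnk3 read 4.85, 4.96 and 4.58 untreated and 5.64, 5.13 and 5.96 with rIFN-β, higher in all treated arrays, with a difference of 0.78 (SE 0.28, adjusted p = 0.224). Kcnj6 read 6.90, 7.15 and 7.13 untreated and 6.62, 5.69 and 6.71 treated, lower in all treated arrays (-0.72, SE 0.24, adjusted p = 0.190), and without replicate 2 of the treated arrays the difference was -0.40. Kcnd3 was lower by a smaller step (-0.50, adjusted p = 0.271), and Kcnh3, a voltage-gated subunit of forebrain neurons, was higher (0.34, adjusted p = 0.331). In the Ifnb-/- + rIFN-β replicate 2 array, which was lowest for Kcnk2 and Kcnj6, the astrocyte markers had their highest mean level (9.24), and the part of those cells was not tested.

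**Figure D5:**
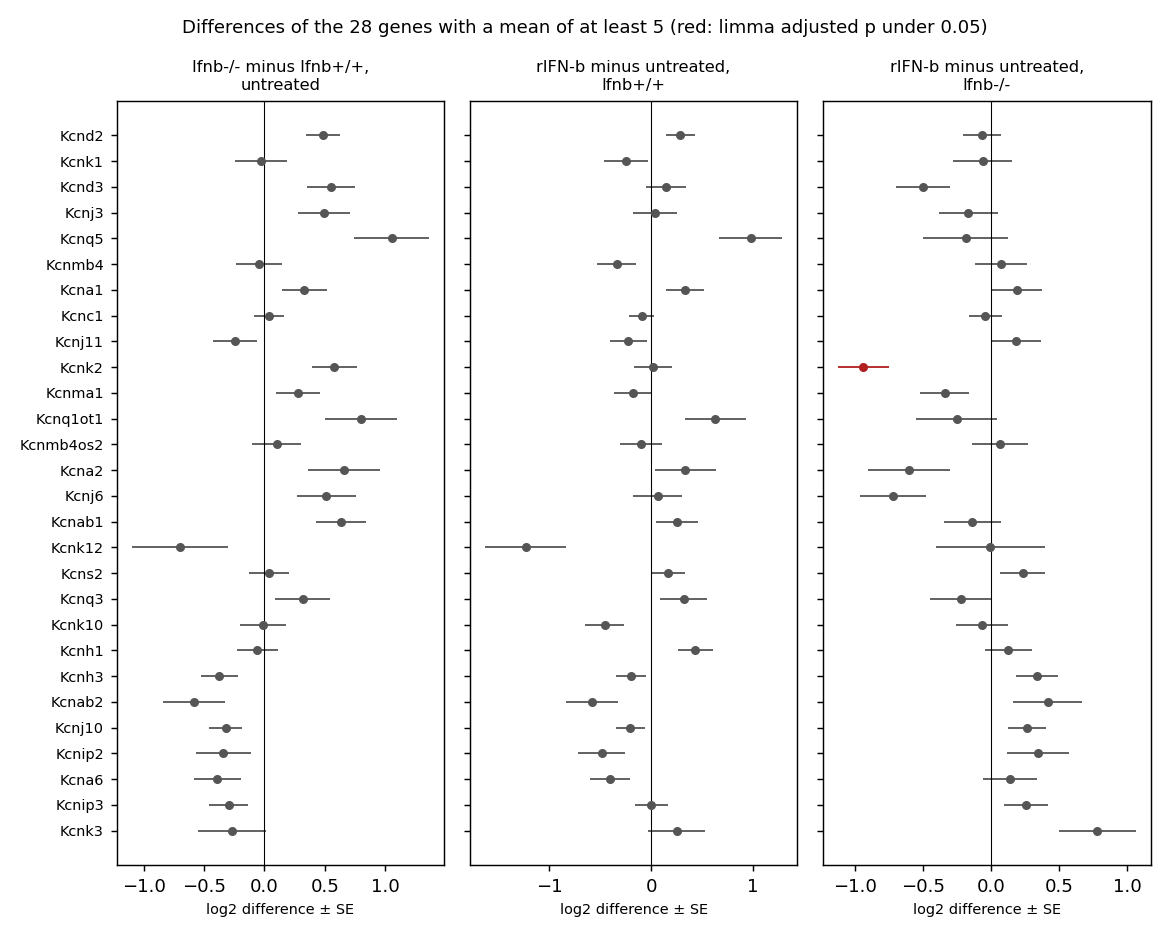
Log2 differences (points) with their SE (whiskers) of the 28 bright potassium channel genes in 3 comparisons, ordered by mean brightness, with red for a limma adjusted p under 0.05. Among these genes Kcnk2 with rIFN-β in Ifnb-/- (-0.94) is the one red point, and the panels share the untreated arrays.

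Averaged over both genotypes, rIFN-β lowered 2 members, Kcnn2 and Kcnk13. Over all genes 4.84% were called. Unadjusted p-values were under 0.05 for 3 members on the higher side (9.26% of all genes) and 6 on the lower (8.51% of all genes), and with centred arrays for 1 and 7. Kcnn2 was lower in all 6 treated arrays than in all 6 untreated ones, with a difference of -0.98, a 1.97-fold fall (SE 0.16, adjusted p = 0.00291). It was called without each of the 12 arrays in turn, with differences between -1.12 and -0.83. Its response in the genotypes differed by -0.32 (SE 0.31, adjusted p = 0.582).

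Kcnk13 fell by 0.31 on average (SE 0.08, adjusted p = 0.0473), and Kcnk2 had an average difference of -0.46 (SE 0.13, adjusted p = 0.0713). The mean of Kcnk13 was 3.73 untreated and 3.24 treated in Ifnb+/+, but 3.70 and 3.58 in Ifnb-/-. Over both genotypes its treated and untreated arrays overlapped. Of the leave-out fits, 2 of 12 kept the call of Kcnk13, those without Ifnb+/+ replicate 2 or Ifnb+/+ + rIFN-β replicate 1, with an adjusted p up to 0.137 in the others. Kcnma1, the pore of the large-conductance calcium-activated channel, had a difference of -0.26 (adjusted p = 0.309), which without Ifnb+/+ replicate 1 was -0.38 and called. Kcna1 (0.26, adjusted p = 0.329) and Kcnk3 (0.52, adjusted p = 0.190) were on the higher side.

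Kcnn2 is also a gene of Purkinje cells, so the markers of those cells were read beside it. Each of the 5 such markers had a lower group mean with rIFN-β in both genotypes, by little for Calb1 in Ifnb-/- (7.16 and 7.11). Of the 5, 1 was called on average, Car8 (-1.12, adjusted p = 0.0332). The mean level of the 5 was between 5.61 and 6.03 in untreated arrays and between 4.92 and 5.77 in treated ones, Ppp1r17 was near the bottom of the scale (2.23), and Pcp2 read 6.16. The part of those cells in the fall of Kcnn2 was not tested.

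With interferon as the treatment, the promoters of the members were searched for interferon response motifs. RefSeq promoters (GRCm38.p6) were at hand for 64 of the 84 members, in 89 windows of the 250 bases before a transcription start. The interferon-stimulated response element was searched as GAAANNGAAA and the gamma-activated site as TTCNNNGAA, on both strands. The first was found in 6 of 89 member windows (6.74%), beside 2.98% of all 32851 windows, and the second in 7 of 89 (7.87%), beside 7.02%. The cAMP response element, TGACGTCA, was in 0 of 89, beside 1.55% of all windows. The windows with the first motif belonged to Kcna7, Kcnab1, Kcnc2 and Kcnj16, and those of Kcnc2 overlap. None of the 4 windows of Kcnk2 and not the window of Kcnk13 held either motif. Windows of Kcnk13 and Kcnk2 are shown because both genes fell with rIFN-β, and a window of Kcnab1 because it held both motifs. Kcnn2 also fell, but windows on its chromosome, 18, were not printed, and whether it has a motif is not given here. Kcnk2 is given at the start site farthest downstream, and capitals mark a motif.
Kcnk13, chr12:99964249-99964498, plus strand: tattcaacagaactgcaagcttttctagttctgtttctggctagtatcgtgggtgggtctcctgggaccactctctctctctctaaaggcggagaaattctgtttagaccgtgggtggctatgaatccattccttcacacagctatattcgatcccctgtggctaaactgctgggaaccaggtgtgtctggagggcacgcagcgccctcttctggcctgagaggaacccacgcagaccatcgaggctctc
Kcnk2, chr1:189343354-189343603, minus strand: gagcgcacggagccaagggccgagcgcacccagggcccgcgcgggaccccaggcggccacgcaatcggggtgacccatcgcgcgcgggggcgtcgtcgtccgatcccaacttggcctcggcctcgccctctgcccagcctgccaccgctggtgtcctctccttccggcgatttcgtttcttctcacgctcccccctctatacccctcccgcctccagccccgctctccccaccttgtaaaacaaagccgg
Kcnab1, chr3:64948962-64949211, plus strand: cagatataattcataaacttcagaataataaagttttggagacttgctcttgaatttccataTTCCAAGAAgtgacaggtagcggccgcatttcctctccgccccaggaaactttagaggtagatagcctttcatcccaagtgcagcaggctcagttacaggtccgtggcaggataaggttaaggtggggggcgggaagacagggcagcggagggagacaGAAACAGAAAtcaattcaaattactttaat
In the Kcnab1 window the gamma-activated site stands upstream and the interferon response element near the start. Kcnab1 had differences with rIFN-β of 0.25 in Ifnb+/+ (adjusted p = 0.532) and -0.14 in Ifnb-/- (adjusted p = 0.776). The Kcnk2 window is rich in CpG, with 28 such pairs and 70.4% G and C, and that of Kcnk13 held 8 and 52.8%.

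When both genotypes had rIFN-β, no member differed between them in limma, where 0.0605% of all genes did. Before adjustment, 2 members were higher in Ifnb-/- at a p under 0.05 (1.88% of all genes) and 1 lower (3.06% of all genes). None of the 28 bright members was among them. Kcnd2, highest in untreated Ifnb-/-, read 9.80, 10.22 and 10.05 in treated Ifnb+/+ and 10.31, 10.10 and 10.07 in treated Ifnb-/-, which overlapped (0.14, SE 0.14). Kcnip2 had the smallest p of the bright members (0.49, SE 0.23, adjusted p = 0.988). Kcne4, a dimmer accessory subunit, differed by 0.38 (adjusted p = 0.605).

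The response to rIFN-β was tested against genotype as an interaction, and no member was called, beside 0.022% of all genes. By unadjusted p under 0.05, 10 members had a more positive response in Ifnb-/- (10.1% of all genes) and 6 a more negative one (5.21% of all genes). Kcnk2 (-0.96), Kcnq5 (-1.16, SE 0.44) and Kcnj6 (-0.78, SE 0.34) were on the negative side. Kcnab2 (0.99, SE 0.36), Kcnip2 (0.83, SE 0.32) and Kcnh3 (0.54, SE 0.21) were on the positive side. Each had an adjusted p of 0.323. Without Ifnb+/+ replicate 2, 5 members were called, with Kcnk2, Kcna2 and Kcnd3 negative and Kcnk12 and Kcnab2 positive, beside 6.8% of all genes.

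Averaged over both treatments, no member differed between the genotypes, beside 0.231% of all genes. Before adjustment, 3 members were higher in Ifnb-/- at a p under 0.05 (3.02% of all genes) and 2 lower (6.05% of all genes), and with centred arrays 4 and 1. Those 3 were Kcnd2 (0.31, SE 0.10, adjusted p = 0.355), Kcnab1 (0.44, SE 0.15, adjusted p = 0.390) and Kcnj3 (0.39, SE 0.15, adjusted p = 0.479). Kcnj3 read 8.51, 9.19 and 8.93 in untreated Ifnb+/+ and 9.28, 9.52 and 9.31 in untreated Ifnb-/-.

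Several members were measured by more than 1 probe set, and for some the dimmer ones gave another picture. In all, 167 probe sets named a single member, and 46 members had more than 1. With every probe set tested on its own, 4 were called in Ifnb-/- with rIFN-β and 6 on average over the genotypes, all lower, beside 1.17% and 4.99% of all 34945 probe sets. Besides those of Kcnn2, Kcnk2 and Kcnk13, they belonged to Kcnq5, Kcnj6, Kcnd3 and Kcnj3, whose brightest probe sets were not called.

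The dimmest of 3 Kcnq5 probe sets read 6.10, 5.89 and 5.48 in untreated Ifnb-/- and 4.98, 4.59 and 4.37 with rIFN-β. All treated arrays were lower, and it fell by 1.17 (SE 0.19, adjusted p = 0.0148), while the brightest Kcnq5 probe set differed by -0.19 (SE 0.31). In Ifnb+/+ the same dim probe set differed by -0.32, the middle one by 0.29 and the brightest by 0.98, so the dimmest alone was opposite in sign there, and none of the 3 was called.

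The third Kcnd3 probe set read 6.13, 6.57 and 6.38 in untreated Ifnb+/+, 6.90, 6.64 and 6.60 in untreated Ifnb-/-, 6.11, 4.61 and 6.13 in treated Ifnb+/+ and 5.64, 4.97 and 5.09 in treated Ifnb-/-. The highest treated and the lowest untreated array met at 6.13, and it fell by 1.11 on average (SE 0.24, adjusted p = 0.0218), beside -0.18 for the brightest. The second Kcnj6 probe set fell by 0.94 in Ifnb-/- (adjusted p = 0.0289), and the third Kcnj3 probe set fell by 0.49 on average (adjusted p = 0.0337). Which part of the transcript each probe set reads was not analysed here.

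The partners of these channels were read from a list of 40 genes, of which 34 were measured and 27 were bright. It holds anchoring proteins, calmodulins, G protein subunits and the related Hcn channels. Of the 34, 1 was called in the 7 comparisons, Nedd4l, a ubiquitin ligase that limits channels at the membrane, which fell with rIFN-β on average (-0.38, SE 0.08, adjusted p = 0.0128), where 4.84% of all genes were called. Between the untreated genotypes, 5 of the 34 (14.7%, beside 8.4% of all genes) were higher and 6 (17.6%, beside 12.8%) were lower before adjustment at a p under 0.05.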

How the data were processed

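RNA from 12 cultures of CGNs (4 groups of 3) was amplified by a kit for the 3' end and read on Affymetrix mouse 430 2.0 arrays. RMA with quantile normalization was run by the authors in Arraystar. The deposited log2 values, for 45037 probe sets, were used as they stand. Probe sets were named through the platform annotation: 34945 had 1 gene symbol, 932 had several and 9160 had none. The last 2 kinds were left out. A gene was read from its brightest probe set, and a mean of at least 5 set bright genes apart. Tests were run in limma 3.58.1 (R 4.3.3), in a model of 4 group means (8 residual degrees of freedom) with empirical Bayes moderation. P-values were adjusted by Benjamini-Hochberg over 18193 genes, and genes were called at an adjusted p under 0.05. Standard errors are the moderated ones.

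The genes named were all called members, the 15 brightest, for each comparison the 6 bright members of smallest p and up to 3 dimmer ones with an unadjusted p under 0.01, the members next to the threshold, and channels known from granule neurons, astrocytes, pericytes and microglia. Kcnf1, Kcnn3 and others with a p above these limits were named after their values were seen. Members and lists were chosen with earlier results of these data known. Alternatives changed 1 choice at a time, except that trend and robust variance went together and the methods' t-test was also counted at an unadjusted p with a fold limit. The fit was checked on simulated data. The precision is limited by 3 arrays a group.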

Additional observations from a re-analysis of the deposited data

How the results depend on the processing

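None of 48 gene differences changed sign under the alternatives run at the level of genes. Single probe sets were not among these, and the dimmest of Kcnq5 was opposite to the brightest with rIFN-β in Ifnb+/+. The number of bright members, 28, stayed within 1.5 times under the other limits. Array weights (gene by gene, since the default estimate did not converge) called far more members, and far more of all genes. For the untreated genotypes 33 of 84 members were called, beside 43.8% of all genes. With rIFN-β the members called were 8 in Ifnb+/+ (18.1% of all genes), 16 in Ifnb-/- (21.8%) and 10 on average (16.8%). The interaction gave 17 (22.6% of all genes) and genotype on average 2 (5.42%). When the probe sets of a gene were averaged, 0 members were called for rIFN-β in Ifnb+/+ (3% of all genes) and 1 on average (5.59%). With every probe set on its own, 4 were called in Ifnb-/- (1.17% of all probe sets) and 6 on average (4.99%). With only genes of a mean of at least 5, the counts were 0 in Ifnb+/+, 1 in Ifnb-/- and 0 on average, since Kcnn2 and Kcnk13 are dimmer. Of all genes in that fit, 4.61%, 2.56% and 7.26% were called. With only the groups compared, they were 0 in Ifnb+/+ and 5 in Ifnb-/-, where 7.01% of all genes were called. Centring the arrays on their median or a trend and robust variance left 1 on average, beside 4.69% and 4.63% of all genes. The methods' t-test with adjustment called 0 members in Ifnb+/+, where 0 of all 18193 genes were called. In Ifnb-/- it called 3 (Kcnd3, Kcnmb2 and Kcnn2, not Kcnk2), beside 1.84% of all genes. At an unadjusted p under 0.05 and 1.5-fold it gave 2 for the untreated genotypes, 0 in Ifnb+/+ and 4 in Ifnb-/-.

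The replicate number as a block gave 3 calls in Ifnb+/+ (Kcnk13, Kcnn2, Kcnq5), beside 4.66% of all genes. On average it gave 1 (Kcnn2), beside 5.3% of all genes. Deviations of same-numbered arrays of different groups correlated from -0.501 to 0.432 (median 0.0669), beside a median of -0.0453 for other pairs. Between untreated and treated arrays of a genotype, same-numbered pairs gave 0.298, 0.156 and 0.0647 in Ifnb+/+ and 0.0733, 0.0691 and 0.0505 in Ifnb-/-. Pairs of unlike number gave -0.297 to 0.182 in Ifnb+/+ and -0.1 to 0.0451 in Ifnb-/-. These values do not settle whether the numbers pair the samples. The block changed the count in no other comparison.

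With each array left out, the counts ranged from 0 to 12 for the untreated genotypes, 0 to 7 in Ifnb+/+, 0 to 2 in Ifnb-/-, 0 to 5 for the interaction and 1 to 3 on average. They were 0 throughout for the treated genotypes and for genotype on average. The counts of 12, 7 and 5 came without Ifnb+/+ replicate 2, where 21.1%, 16% and 6.8% of all genes were called. The cause was not tested.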
